A study of Mus musculus with 47 samples.

Results

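The genes described here encode the proteins of the cytosolic ribosome of the mouse. They were taken from the deposited expression table by symbol: names of the form Rpl, Rps or Rplp with a number, and Rpsa, with kinases and pseudogenes named as such left out. Of 85 rows that matched, 82 had a mean value of 1 or more over all libraries and were kept, among 21980 genes in all. They comprised 33 proteins of the small subunit (Rps genes and Rpsa) and 49 of the large subunit (Rpl and Rplp genes). The germline- and muscle-associated paralogs Rpl10l, Rpl39l and Rpl3l had mean values of 0.0124, 0.0778 and 0.0378 and were left out. All mice were ovariectomized FVB mice, and RNA was sequenced from luminal mature (LM), luminal progenitor (LP) and mammary stem cell (MSC) fractions sorted from mammary tissue. Over 14 days the mice were given either sham treatment or estradiol and progesterone (labelled E2+Progesterone, here EP). In the remaining groups EP was combined with TPA, which is telapristone acetate (EP+TPA), or with RU486, which is mifepristone (EP+RU486). Every group therefore shared the loss of the ovaries, and sham was the only group whose label names no hormone. Both drugs are steroids that block the progesterone receptor, and their doses, the ages of the mice and the sorting markers are not given in the sources used here. There were 47 libraries from 20 mice in 12 groups, with 3 mice in the EP group of the LM fraction and 4 mice in each other group.

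The cytosolic ribosome is built from ribosomal RNA and like numbers of each ribosomal protein, so the genes for these proteins are usually expressed together and are among the most abundant messages of a cell. Their messages typically begin with a C followed by a run of pyrimidines, the terminal oligopyrimidine (TOP) tract, through which the kinase mTOR controls their translation. In the mammary gland, progesterone acts through receptors in luminal mature cells, and hormone treatment of ovariectomized mice drives growth of the epithelium. Growing cells in general make new ribosomes.

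The sequences around the start sites are shown for 8 genes on which the results turn. Rps26, Rpl39 and Rps18 had the smallest p values for EP against sham in the LM fraction, and Rps6 is the ribosomal protein phosphorylated by S6 kinases. Rpl22 and Rpl22l1 are a paralog pair, and Rps27l and Rpl7l1 are 2 paralogs whose levels departed from the rest in the LM fraction. Each run holds 60 bases before and 20 bases from the annotated start on the coding strand, from RefSeq promoters of build GRCm38.p6, and capitals mark a C followed by at least 5 further pyrimidines that begins within 15 bases before to 30 bases after the start.
Rps26 (chr10:128626487-128626566, minus strand): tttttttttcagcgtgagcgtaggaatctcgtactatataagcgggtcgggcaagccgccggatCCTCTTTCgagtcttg
Rpl39 (chrX:37085203-37085282, minus strand): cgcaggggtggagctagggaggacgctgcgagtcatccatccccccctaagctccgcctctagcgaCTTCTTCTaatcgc
Rps18 (chr17:33955646-33955725, minus strand): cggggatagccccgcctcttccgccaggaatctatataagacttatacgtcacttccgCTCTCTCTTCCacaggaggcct
Rps6 (chr4:86857348-86857427, minus strand): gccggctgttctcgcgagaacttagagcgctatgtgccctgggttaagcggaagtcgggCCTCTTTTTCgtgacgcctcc
Rpl22 (chr4:152325666-152325745, plus strand): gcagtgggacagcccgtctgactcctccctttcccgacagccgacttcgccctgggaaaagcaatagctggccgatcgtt
Rpl22l1 (chr3:28805448-28805527, plus strand): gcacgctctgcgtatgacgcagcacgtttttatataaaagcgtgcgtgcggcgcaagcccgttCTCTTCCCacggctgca
Rps27l (chr9:66946026-66946105, plus strand): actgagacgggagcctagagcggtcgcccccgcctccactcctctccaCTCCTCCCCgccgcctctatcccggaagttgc
Rpl7l1 (chr17:46782637-46782716, minus strand): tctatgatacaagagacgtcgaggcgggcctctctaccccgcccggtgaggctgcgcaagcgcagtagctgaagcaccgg
The tract was 11 bases long in Rps18, 10 in Rps6, 9 in Rps27l, and 8 in Rps26, Rpl39 and Rpl22l1. That of Rps27l began at -12 from the annotated start and ended before it, so it lies outside the annotated message. Rpl22 and Rpl7l1 held no such tract in the window, which says only that these letters were not found near the annotated start.

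RefSeq windows of 300 bases (250 before to 50 after the start) were available for 61 of the ribosomal protein genes. The pyrimidine tract was found near the start in 41 of them, 67.2%, against 31.0% of 27025 windows of all genes. Runs lying before or after the annotated start were counted too, so this is no count of TOP tracts at the message's first base. CCGGAAG, the core bound by ETS factors, was found on either strand in 24 windows (39.3%, against 9.12% of all windows), and GGGCGG, the core bound by SP1, in 37 (60.7%, against 35.9%). AAGATGGC, the core bound by YY1, was found in 5 windows (8.20%, against 2.88%). CACGTG, the E-box bound by MYC among others, was found in 8.20% of the windows and in 7.24% of all windows. AGAACA, a core bound by steroid receptors, was found in 13.1% and 19.0%, and TATAAA in 11.5% and 14.2%. The motifs were searched on both strands except the tract, no motif contains another, and a match describes the sequence and is no evidence of a bound factor.

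The deposited values had the scale of FPKM, which corrects fragment numbers for the length of a transcript and the depth of a library, and had been adjusted gene by gene within 3 sets of libraries. Set 1 held the 15 LM libraries, set 2 the 16 LP libraries with 6 MSC libraries, and set 3 the other 10 MSC libraries. Levels are therefore compared within a set, and a difference in mean between LM and the other fractions cannot be read from these values. Summed values ranged from 217977 to 358375 per library, the number of reads behind them is unknown, and values given below were rescaled within sets by factors of 0.504 to 1.324. In the LM fraction the summed level of 15 luminal mature markers was 1640 to 3470 with sham, 463 to 2730 with EP, 206 to 277 with EP+TPA and 124 to 231 with EP+RU486, where 8 of the 15 were listed at 0 in every library. In bulk samples, fewer cells of a type and less RNA per cell cannot be told apart. Ribosomal protein messages are short and have many processed pseudogenes, so the way reads were assigned may bear on single genes, and how it was done is not given in the sources used here.

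Within a fraction the levels, which are scaled for length, differed widely between genes. Rpl32, a large subunit protein, had the highest mean in each fraction, with 906 in LM, 926 in LP and 912 in MSC (rescaled FPKM). Rpl13, also of the large subunit, was next with 803, 830 and 854, and the third in LM and LP was Rps19, a small subunit protein, at 709 and 685. The MSC means pool libraries of sets 2 and 3, and the third place there depended on the rescaling, with Rps14 before Rpl41 after it and Rpl41 before Rps14 in the values as deposited. The lowest in each fraction were Rps15a, with 11.7, 10.6 and 15.3, Rpl32l, with 10.2, 10.5 and 10.1, and Rps4l, with 4.34, 3.35 and 5.92. Rps15a encodes a constitutive protein of the small subunit, whereas Rpl32l and Rps4l are named as copies of other ribosomal protein genes.

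In the LM fraction, ribosomal protein genes made up a larger part of the summed values in every hormone-treated library than in every sham library. The share was 4.63%, 5.08%, 5.35% and 5.62% with sham (mean 5.17 ± 0.422, SD, n = 4). It was 6.32%, 8.98% and 9.36% with EP (8.22 ± 1.66, n = 3), 7.31%, 7.38%, 8.67% and 10.8% with EP+TPA (8.54 ± 1.63, n = 4), and 9.35%, 9.38%, 9.51% and 9.83% with EP+RU486 (9.52 ± 0.220, n = 4). The sham group and the EP+RU486 group were each tight, whereas EP and EP+TPA held libraries of quite different shares. The EP library with the lowest share, from mouse 311, also had the highest luminal mature marker sum of that group, 2730 against 463 and 621, and the EP+TPA library with the highest share, from mouse 332, had the lowest endothelial marker sum of its group, 216 against up to 689. The library of mouse 332 also had a summed level of proliferation genes of 589, against 158 to 183 in the rest of its group. Its luminal progenitor marker sum was 6720, against 11200 to 29700 in the rest of its group. In the EP libraries these sums were 306 to 725 and 3400 to 6510. The part of these differences in the shares was not tested.

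**Figure D1:**
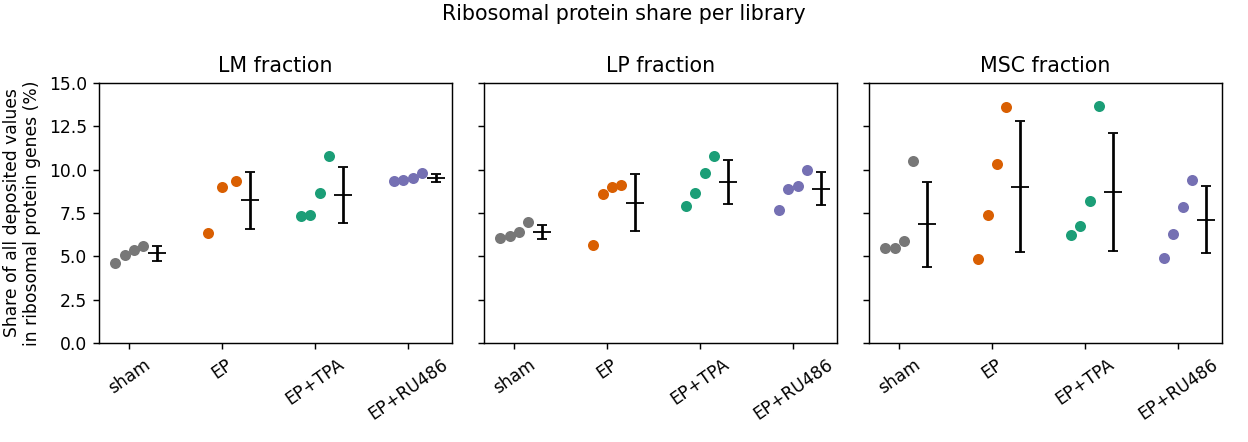
Share of each library's summed values held by the 82 ribosomal protein genes (y axis, percent) by treatment (x axis) in the LM, LP and MSC fractions. Points are libraries, and the black mark and bar give the mean and SD. In LM all treated libraries (6.32% to 10.8%) lie above all sham libraries (4.63% to 5.62%), while the MSC groups overlap between 4.82% and 13.7%.

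With EP, 45 of the 82 ribosomal protein genes rose in the LM fraction against sham and 0 fell (limma, adjusted p under 0.05). Over all 11874 genes tested, 10.3% rose and 9.17% fell. The median log2 fold of the ribosomal protein genes was 0.57, against -0.01 for all genes tested, and 79 of the 82 had a fold above 0. In 51 of them every EP library lay above every sham library, as was the case for 15.9% of all genes tested. Of the small subunit genes 22 of 33 rose, with a median of 0.69, and of the large subunit genes 23 of 49 rose, with a median of 0.51. The number moved with single libraries, since 10 genes rose without the EP library of mouse 327, 16 without that of mouse 306 and 26 without the sham library of mouse 326. Over all genes tested, the share that rose also moved in these fits, from 10.3% to 4.23%, 5.24% and 7.11%.

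Among small subunit genes, Rps26, which lies at the mRNA exit channel, had 184, 216, 229 and 273 with sham and 403, 467 and 553 with EP, and rose by a log2 fold of 1.07 (SE 0.197, adjusted p = 0.00236). Rps18, a protein of the subunit's head, had 311, 357, 362 and 439.9 with sham and 663, 667 and 726 with EP, and rose by 0.91 (SE 0.170, adjusted p = 0.00267). The EP values of both lay well apart from the sham values, with no library in between. Rps6 had 142, 159, 172 and 209 with sham and 231, 241 and 246 with EP, and rose by 0.50. Rps14, Rpsa, Rps4x and Rps19 rose by 0.93, 0.78, 0.66 and 0.64. Rps3, a protein at the mRNA entry channel with a separate role in DNA repair, had a log2 fold of 0.49, and Rps27a, made as a fusion with ubiquitin, had 0.65, and neither passed the test. Rps27 was listed at 0 in 2 of the sham libraries and at 40.2 and 46.6 in the others, and at 37.4, 39.0 and 121 with EP, so no fold is read from it.

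Among large subunit genes, Rpl39, a small protein of the exit tunnel, had 114, 149, 154 and 196 with sham and 318, 325 and 399.6 with EP, and rose by 1.20 (SE 0.224, adjusted p = 0.0026). Rpl5 and Rpl11, which bind the 5S ribosomal RNA and can bind the p53 regulator Mdm2, rose by 0.57 and 0.66. Their values did not overlap between the groups: Rpl11 had 126 to 168 with sham and 219 to 277 with EP, and Rpl5 had 62.2 to 82.6 and 97.2 to 124. Rpl41, Rpl10 and Rpl22 rose by 0.86, 0.64 and 0.57. Rpl3, which lies at the peptidyl transferase centre, had 229.9, 263, 275 and 362 with sham and 319.7, 412 and 418 with EP, so the groups overlapped, and its fold of 0.45 did not pass the test (adjusted p = 0.071). Rpl4 and Rpl13a, with folds of 0.47 and 0.53, did not pass either. The stalk proteins Rplp0, Rplp1 and Rplp2, which recruit elongation factors, had folds of 0.48, 0.51 and 0.44, and none passed.

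With either antagonist the LM levels also lay above sham. With EP+TPA 68 of 82 ribosomal protein genes rose against sham and 0 fell, with a median log2 fold of 0.71, while 6.87% of all genes tested rose and 9.27% fell. With EP+RU486 71 rose and 0 fell, with a median of 0.85, while 9.74% of all genes rose and 11.9% fell. The medians over all genes were 0.02 in both comparisons, and both used the same sham libraries as the comparison with EP. Of small and large subunit genes 26 of 33 and 42 of 49 rose with EP+TPA, and 29 of 33 and 42 of 49 with EP+RU486. Of the 15 luminal mature markers 12 fell against sham with EP+TPA and 13 with EP+RU486, none of the 10 endothelial markers passed in either comparison, and the part of the markers' change in these counts was not tested. Without the sham library of mouse 326, 40 genes rose with EP+TPA and 63 with EP+RU486, where 3.43% and 6.48% of all genes rose.

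The genes with the smallest p values under EP+RU486 were Rpl3, Rpl36a and Rps7. Rpl3 had 595, 618, 646 and 748 with EP+RU486 and 497, 512, 519 and 538 with EP+TPA, each above the highest sham library at 362. Its fold against sham was 1.22 with EP+RU486 (SE 0.155, adjusted p = 8.71e-05) and 0.89 with EP+TPA (SE 0.155, adjusted p = 0.0013). Rpl32, the most abundant of the genes, had 434, 485, 542 and 602 with sham, 752, 940.1 and 969 with EP, 927, 1026, 1119 and 1179 with EP+TPA and 967, 1070.2, 1265 and 1312 with EP+RU486. Every treated library of Rpl32 lay above every sham library, and its fold against sham was 1.05 with EP+TPA (adjusted p = 0.000372) and 1.16 with EP+RU486 (adjusted p = 0.000139). Rps7, a small subunit protein that can also bind Mdm2, rose by 1.17 and 1.37, Rpl10a by 1.11 and 1.35, and Rpl36a by 0.80 and 1.17. The stalk genes Rplp0 and Rplp2 rose by 0.82 and 0.63 with EP+TPA and by 0.70 and 0.69 with EP+RU486, whereas Rplp1 had folds of 0.42 and 0.52 that did not pass.

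**Figure D2:**
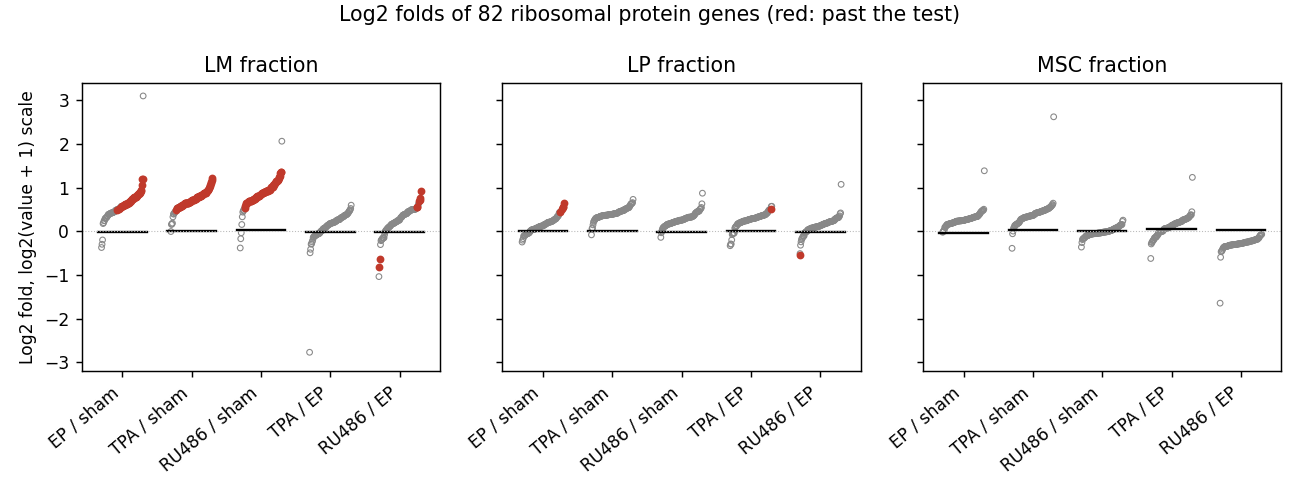
Log2 folds of the 82 ribosomal protein genes (y axis, on the log2(value + 1) scale) in 5 comparisons (x axis) in each fraction, sorted within each comparison. Red points passed the test at an adjusted p under 0.05, open points did not, and the black line is the median of all genes tested. The 3 comparisons with sham in LM hold 45, 68 and 71 red points above 0, and the MSC fraction holds none.

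Compared with EP alone, few of the genes passed the test in the LM fraction with an antagonist added. With EP+TPA 0 passed in either direction (limma), against 1.32% of all genes that rose and 3.20% that fell. The median log2 fold was 0.18. Library weights gave 1 call, Rps27l, with a fold of -0.60, where 10.6% of all genes rose and 10.6% fell. Without the EP+TPA library of mouse 332 Rps27l was again the 1 call (-0.61), where 9.57% of all genes rose and 9.14% fell. The shares over all genes in this comparison thus moved with that library. In the main fit an unadjusted p under 0.05 was reached by 9 of the 82 and by 2615 of all 11874 genes. With EP+RU486 6 rose and 2 fell, against 8.32% and 9.56% of all genes, with a median of 0.27 and 69 of 82 folds above 0. Every EP+RU486 library lay above every EP library in 34 of the 82 and in 2159 of all 11874 genes. For EP+RU486 against EP, 31 of the 82 and 4021 of all genes had an unadjusted p under 0.05. In the same libraries the summed level of 14 luminal progenitor markers was 3400 to 6510 with EP and 11100 to 13900 with EP+RU486, and 9 of the 14 rose and 2 fell. The 10 endothelial markers summed to 235 to 325 and 362 to 605, and none passed the test. Of the 15 luminal mature markers 10 fell. The part of these markers in the counts was not tested. The count of 8 was 18 when only the EP and EP+RU486 libraries were fitted, and 3 to 6 with 1 library left out. Over all genes 13.0% rose and 11.5% fell in the former fit. With 1 library left out 4.70% to 6.28% rose and 6.22% to 6.95% fell.

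The 6 that rose with EP+RU486 against EP were Rpl3 by 0.77, Rpl13 by 0.73, Rpl12 by 0.92, Rpl37a by 0.70, Rpl36a by 0.57 and Rps9 by 0.57. The calls of Rpl37a and Rps9 were lost in all 7 fits with 1 library left out (highest adjusted p = 0.101 and 0.164), without rescaling (adjusted p = 0.0977 and 0.164) and with no filter on low values (0.0557 and 0.0624), and that of Rpl36a was lost in 5 of the 7 fits and without rescaling (adjusted p = 0.172). Rpl13 had 589.7, 605 and 709.7 with EP and 915, 984, 1083 and 1244 with EP+RU486, and sham libraries held 452 to 663 (EP against sham 0.18, adjusted p = 0.505). Rpl12 had 113, 196 and 203 with EP and 298, 303, 315 and 337 with EP+RU486. For both genes, and for Rpl3, every EP+RU486 library lay above every EP library, and the EP group overlapped the sham group.

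The 2 that fell were Rps27l and Rpl30. Rps27l is a paralog of Rps27 that is known as a target of p53. Its levels were 203, 216, 221 and 251 with sham, 302, 373 and 378 with EP, 194, 229, 272 and 315 with EP+TPA, and 172, 189.9, 202 and 229.5 with EP+RU486. The EP libraries lay above all sham and all EP+RU486 libraries, and EP+TPA lay across both. Rps27l rose with EP by 0.65 (SE 0.177, adjusted p = 0.0189) and fell with EP+RU486 against EP by 0.82 on the log2 scale (SE 0.177, adjusted p = 0.00681), and with EP+TPA against EP its fold was -0.49 (adjusted p = 0.117). Rpl30, a large subunit protein that binds a kink-turn in RNA, had 29.7, 39.3, 40.5 and 42.9 with sham, 53.2, 65.2 and 82.7 with EP, 47.4, 56.6, 60.5 and 65.1 with EP+TPA and 30.04, 44.8, 45.3 and 51.9 with EP+RU486. It rose by 0.79 with EP (adjusted p = 0.0167) and fell by 0.63 on the log2 scale with EP+RU486 against EP (adjusted p = 0.0471). The EP+RU486 libraries of Rpl30 all lay below the EP libraries and overlapped sham, where the fold was 0.16.

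Of the paralogs of Rpl22 and Rpl7, that of Rpl7 took another course. Over the LM libraries, Pearson r with the mean of the ribosomal protein genes was 0.91 for Rpl22, 0.84 for Rpl22l1 and -0.23 for Rpl7l1. Rpl22, an RNA-binding protein of the large subunit, was a low member with 12.4, 13.3, 14.5 and 18.6 with sham and 17.9, 23.7 and 25.4 with EP. It had 18.4, 19.9, 21.9 and 23.99 with EP+TPA and 28.6, 29.9, 30.1 and 33.9 with EP+RU486, so that the EP+RU486 libraries stood above all others. Its fold against sham was 1.02 with EP+RU486 (SE 0.163, adjusted p = 0.000509) and 0.50 with EP+TPA (adjusted p = 0.0482, over 0.05 with trimmed mean scaling, without rescaling, with no filter on low values and with only the groups compared). Rpl22l1, which can replace Rpl22 in the ribosome, had 39.3 to 54.7 with sham, 34.7, 65.1 and 79.1 with EP, 61.3 to 108 with EP+TPA and 67.4 to 96.9 with EP+RU486. It rose with EP+TPA by 0.90 and with EP+RU486 by 0.81, and its fold with EP was 0.30 (adjusted p = 0.447), where the library of mouse 311 lay below all sham libraries. Rpl22 and Rpl22l1 thus both rose against sham under each antagonist in the main fit. With 1 library left out, the call of Rpl22 with EP+TPA was lost in 6 of 8 fits. That of Rpl22l1 was lost in 2 of 8 fits with EP+TPA and in 4 of 8 with EP+RU486. Rpl7l1, a protein of ribosome assembly related to Rpl7, had 27.5 to 32.8 with sham, 23.9 to 30.7 with EP, 27.95 to 50.4 with EP+TPA and 20.4 to 24.7 with EP+RU486. Its folds against sham were -0.20, 0.19 and -0.38, none of which passed the test. Rps4l, a low member, had folds of -0.30, 0.17 and 0.33, and Rpl26, a large subunit protein, of -0.37, -0.00 and -0.03, and these did not pass either.

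**Figure D3:**
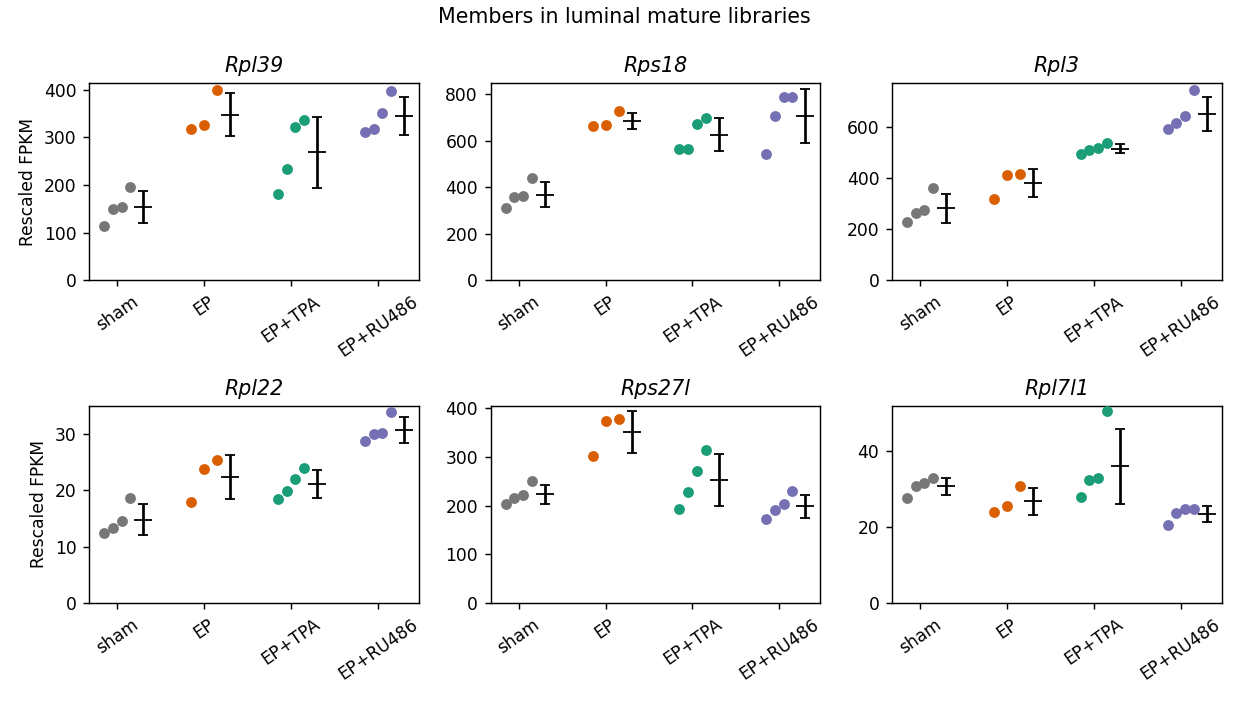
Levels of 6 ribosomal protein genes in the LM fraction (y axis, rescaled FPKM from 0) by treatment (x axis). Points are libraries, and black marks and bars give the mean and SD. Rpl39 and Rps18 stand apart from sham in every EP library, Rpl3 and Rpl22 are highest with EP+RU486 (595 to 748 and 28.6 to 33.9), Rps27l is highest with EP (302 to 378), and Rpl7l1 is lowest with EP+RU486 (20.4 to 24.7).

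The 2 antagonists were compared directly, in 1 pair of compounds per fraction. In the LM fraction 0 of the ribosomal protein genes differed between EP+TPA and EP+RU486 (limma, smallest adjusted p = 0.322), and 0 of all 11874 genes did. An unadjusted p under 0.05 was reached by 6 of the 82 and by 1587 of all genes. The median log2 fold of EP+TPA over EP+RU486 was -0.13, and 69 of 82 were below 0. Rpl22 had a fold of -0.52 with a 95% interval of -0.87 to -0.18, Rpl3 of -0.33 (-0.66 to -0.00) and Rpl7l1 of 0.57 (0.20 to 0.93). The median distance from a fold to the end of its interval was 0.369, so differences of that size could not be told from none, and the result does not show that the compounds acted alike. In LP the median was 0.14 with 0 of 82 called and 0 with an unadjusted p under 0.05, and in MSC it was 0.40 with 0 and 0.

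Other genes of the translation and growth machinery were described from lists, with the count that passed over the count tested, to be read against the 10.3% of all genes that rose and the 9.17% that fell in LM with EP. In that comparison 5 of 13 other TOP messages rose and 0 fell, with a median log2 fold of 0.29, among them Npm1, a nucleolar chaperone (0.98), and Rack1, a protein of the small subunit that lies outside the naming rule (0.92). Of 7 elongation factors 3 rose, among them Eef1b2 (0.95) and Eef1g (0.80), which belong to the exchange factor of Eef1a. Of 69 ribosome biogenesis factors 10 rose and 1 fell, with a median of 0.32, among them Dkc1, the pseudouridine synthase of H/ACA particles (1.25), and Nop10 of the same particles (0.87). Of 18 subunits and factors of RNA polymerase I 4 rose and 1 fell, among them Polr1b (1.15). Of 77 mitochondrial ribosomal proteins 9 rose and 1 fell, of 73 respiratory chain and ATP synthase subunits 17 rose and 1 fell, and of 30 proliferation genes 28 rose and 0 fell, the last with a median of 2.59. The numbers of mitochondrial ribosomal proteins and biogenesis factors that rose were near the share over all genes.

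With EP+RU486 against EP in LM, where 8.32% of all genes rose and 9.56% fell, 27 of 30 proliferation genes, 21 of 73 respiratory chain subunits, 9 of 77 mitochondrial ribosomal proteins, 6 of 69 biogenesis factors and 6 of 14 proteasome core subunits fell. Those of mitochondrial ribosomal proteins and biogenesis factors were near the share over all genes. No list was tested against the ribosomal protein genes. In the same comparison 2 of 7 elongation factors rose, Eef1a1 (0.83) and Eef2 (0.60), and 3 of 13 other TOP messages rose, among them Tpt1 (0.99), and 0 of either list fell. Against sham, EP+RU486 gave medians of 0.59 for other TOP messages (6 of 13 rose), 0.56 for elongation factors (4 of 7 rose), 0.71 for host genes of small nucleolar RNAs (5 of 12 rose, Gas5 by 1.23), 0.01 for biogenesis factors (3 of 69 rose) and -0.06 for respiratory chain subunits (2 rose and 4 fell). Over all genes 9.74% rose and 11.9% fell in that comparison. With EP+TPA against sham, 14 of 69 biogenesis factors rose and 1 fell, with a median of 0.42, where 6.87% of all genes rose and 9.27% fell. Ribosomal protein messages are short, with a median transcript of 704 bases and 65 of 80 below 1000 bases. Of 799 other abundant genes with transcripts under 1000 bases, 104 rose and 81 fell with EP against sham, and 81 rose and 103 fell with EP+RU486 against sham, with medians of 0.09 and -0.02. Over all genes 10.3% rose and 9.17% fell with EP, and 9.74% rose and 11.9% fell with EP+RU486. The counts of short genes with EP+RU486 were near those shares.

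**Figure D4:**
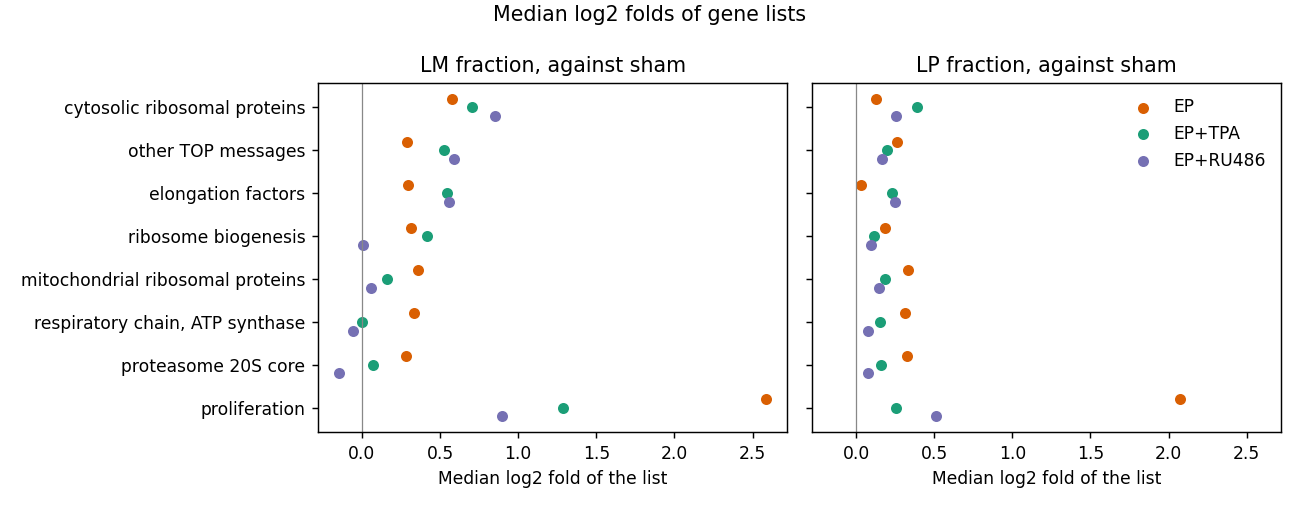
Median log2 fold against sham (x axis) of 8 gene lists (y axis) in the LM and LP fractions, with a point for each treatment. In LM the ribosomal protein genes have medians of 0.57, 0.71 and 0.85 with EP, EP+TPA and EP+RU486, while the respiratory chain list has 0.33, 0.00 and -0.06.

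In the LP fraction few of the ribosomal protein genes passed the test. With EP 5 of 82 rose against sham and 0 fell (limma), against 16.2% of all 11402 genes tested that rose and 16.1% that fell, and the median log2 fold was 0.13. The 5 were Rpl30 by 0.65, Rpl29 by 0.44, Rps28 by 0.55, Rpl15 by 0.51 and Rps26 by 0.56. Rpl30 had 30.3, 30.4, 35.2 and 41.8 with sham and 48.0, 49.4, 56.0 and 64.4 with EP, with no overlap (SE 0.174, adjusted p = 0.00949). Rps26 had 255, 293, 294 and 370.3 with sham and 331, 464, 466 and 543 with EP, where the lowest EP library lay among the sham values. Rps18 had 445, 484, 489 and 506 with sham and 366, 559.8, 583 and 634 with EP, and its fold of 0.13 did not pass (adjusted p = 0.669).

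The lowest EP value of Rps18, Rps26 and Rps28 in the LP fraction came from mouse 327, in which the ribosomal protein genes held 5.66% of the summed values against 8.62% to 9.1% in the other EP libraries. That library also had the highest endothelial marker sum of the LP fraction, 448 against 117 to 281 in the others, and the lowest luminal progenitor marker sum, 1970 against 6610 or more. The part of either in its share was not tested. Without it 13 ribosomal protein genes rose with EP, and without the EP library of mouse 322 only 1 did. Over all genes 14.9% and 12.8% rose in these fits, and the count of 13 was near that share. Without any rescaling 39 rose, with a median of 0.43, in a setting where the median of all genes was itself 0.25. In that setting 34.0% of all genes rose and 8.17% fell.

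Against sham in LP, the antagonists gave medians of 0.39 with EP+TPA and 0.26 with EP+RU486, with 81 and 80 of 82 folds above 0. None passed the test in limma, with smallest adjusted p values of 0.0532 and 0.0539, where 1.80% of all genes rose and 3.30% fell with EP+TPA, and 4.24% rose and 6.38% fell with EP+RU486. An unadjusted p under 0.05 was reached by 43 and 13 of the 82, and by 2137 and 2919 of all 11402 genes. Trimmed mean scaling gave 2 calls each (Rps26 and Rpl10a, and Rpl4 and Rpl10a), where 2.02% and 4.53% of all genes rose. Library weights gave 6 and 14 calls. In that setting 4.96% of all genes rose and 7.81% fell with EP+TPA, and 10.1% rose and 13.1% fell with EP+RU486. The shares were 6.03% to 6.95% with sham, 7.91% to 10.8% with EP+TPA and 7.65% to 9.98% with EP+RU486, so every antagonist library lay above every sham library. Rpl3 had 342, 397, 419 and 456.5 with sham, 465, 541, 643 and 665 with EP+TPA and 504, 527, 576 and 608 with EP+RU486. Both antagonist groups lay above sham and overlapped each other, whereas the EP libraries of Rpl3, at 289.5, 437, 459 and 522, overlapped sham and both antagonist groups.

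Against EP in LP, Rpl13 rose with EP+TPA by 0.51 (SE 0.170, adjusted p = 0.049), the only call, where 7.79% of all genes rose and 10.6% fell. Its values were 495, 665, 739.8 and 842 with EP and 766, 882, 1023 and 1214 with EP+TPA, which overlapped. Rpl30 fell with EP+RU486 by 0.55 on the log2 scale (adjusted p = 0.0338), the only call, where 9.02% of all genes rose and 11.8% fell. Its EP+RU486 values of 31.8, 33.7, 39.0 and 42.9 all lay below the EP values. In both luminal fractions Rpl30 passed the test above sham with EP and below EP with EP+RU486, and the latter call was lost in 5 of 7 fits with 1 library left out in LM (highest adjusted p = 0.194, without the EP library of mouse 327), in 5 of 8 in LP (0.0936, without the EP+RU486 library of mouse 304), and with no filter on low values in both (adjusted p = 0.0637 and 0.0501). Rps27l had folds of 0.48 with EP against sham (adjusted p = 0.0814) and -0.51 with EP+RU486 against EP in LP, which did not pass. With library weights it fell against EP under both antagonists, by 0.60 on the log2 scale with EP+TPA and by 0.59 with EP+RU486. In the other lists of the LP fraction, 39 of 77 mitochondrial ribosomal proteins rose and 2 fell with EP against sham, among them Mrpl34 by 1.86 and Mrpl18 by 1.07. In the same comparison 29 of 73 respiratory chain subunits and 29 of 30 proliferation genes rose and 0 fell, and 13 of 69 biogenesis factors rose and 2 fell. Over all genes 16.2% rose and 16.1% fell, which the count of biogenesis factors was near.

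In the MSC fraction no ribosomal protein gene passed the test in any of the 6 comparisons (limma with a term for the set), and 0% of all 12193 genes tested passed in either direction. The medians against sham were 0.25 with EP, 0.37 with EP+TPA and -0.03 with EP+RU486, and they were 0.12 and -0.28 for EP+TPA and EP+RU486 against EP. Each of these medians changed sign in at least 1 other setting, so no direction is read from them. An unadjusted p under 0.05 was reached by Rps4l alone in the comparisons of EP+TPA and EP+RU486 with EP, with folds of -0.62 and -0.59, and by 0 genes in the other 4, and library weights gave 1 call, again Rps4l, for EP against sham (0.52) and for EP+TPA against EP (-0.79). With library weights 4.22% of all genes rose and 4.74% fell for EP against sham. For EP+TPA against EP 0.123% rose and 1.16% fell in that setting. The median distance from a fold to the end of its 95% interval was 0.886 for EP against sham in MSC, against 0.399 in LM and 0.398 in LP. Rps18 showed the spread: it had 397, 409, 456 and 779 with sham, 322, 565, 665 and 1091 with EP, 447, 532, 552 and 1783 with EP+TPA and 367, 506, 546 and 689.8 with EP+RU486. Each group reached from low to high values and overlapped every other. These values pool libraries of sets 2 and 3.

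The high MSC libraries also differed in cell type markers. The 5 libraries with the largest ribosomal protein share, 9.41% to 13.7%, were those of mice 326 (sham), 322 and 327 (EP), 323 (EP+TPA) and 324 (EP+RU486). The same 5 had the lowest sums of 10 endothelial markers, 0 to 428 against 479 to 1830 in the other 11, and basal marker sums of 4010 to 12200 against 281 to 5280. They came from all 4 treatments and from both adjustment sets of this fraction. In set 2, mice 322, 323 and 324 had endothelial sums of 231 to 428 against 1260 to 1830 in mice 305, 306 and 308. Their basal sums were 8120 to 12200 against 2690 to 5280. In set 3, mice 326 and 327 had endothelial sums of 32.9 and 0 against 479 to 1050 in the other libraries, and basal sums of 5060 and 4010 against 281 to 3380. The part of cell composition in these shares was not tested.

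**Figure D5:**
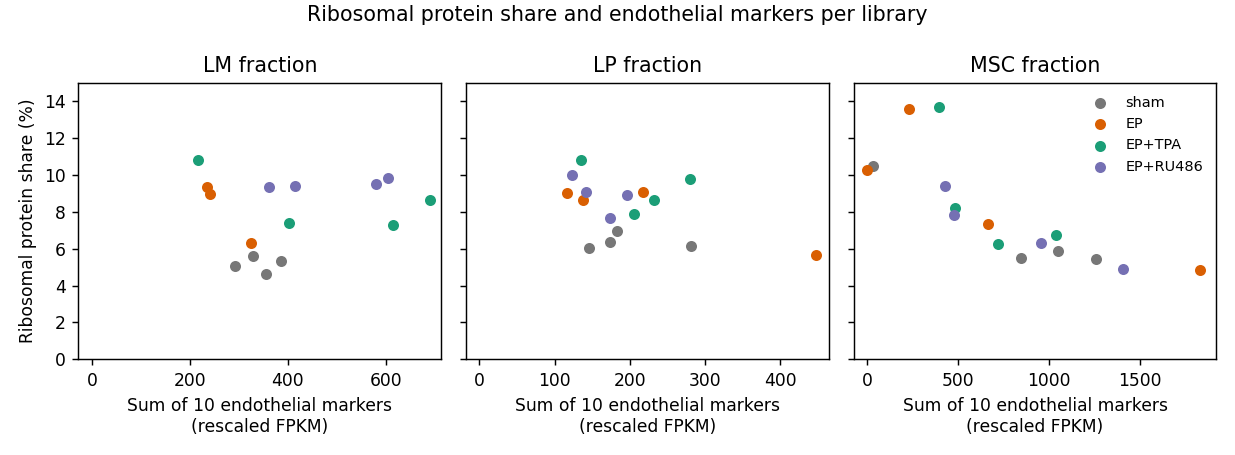
Ribosomal protein share (y axis, percent of summed values) against the summed level of 10 endothelial markers (x axis, rescaled FPKM) for each library, by fraction and coloured by treatment. In MSC the 5 libraries above 9% have sums of 0 to 428, and in LP the EP library at 448 has the lowest share, 5.66%.

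Fractions could be compared only for MSC and LP within set 2, over 12 libraries from 6 mice that gave both. Only Rps4l differed of the 82 genes, where 39.2% of all 11918 genes tested differed in either direction. Its mean level was 7.97 in MSC and 3.24 in LP, with a log2 fold of 1.07 (SE 0.168, limma adjusted p = 0.00101). That fit held no term for the mouse, and with the mouse as a block the SE was 0.165 (limma adjusted p = 0.00196). The median fold of the ribosomal protein genes was 0.18 and that of all genes 0.04, with 65 of 82 above 0. Without rescaling 1 gene was higher and 15 were lower in MSC, with a median of -0.44 where all genes had -0.47. In that setting 11.1% of all genes were higher and 48.0% were lower in MSC.

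The genes varied together from library to library, with a few exceptions. The log2 level of each was set against the mean over all of them, which includes the gene itself and shares its library and scaling. In the LM fraction (n = 15 libraries) the lowest Pearson r values were those of Rpl7l1 (-0.23), Rps27l (0.11), Rpl26 (0.11), Rps27 (0.30), Rps4l (0.30) and Rpl30 (0.45), and the next was Rps14 with 0.78. In LP (n = 16) the same 6 genes were the lowest, from 0.19 for Rps4l to 0.51 for Rpl30. In MSC (n = 16) the lowest were Rpl7l1 (0.14), Rps4l (0.16), Rps27 (0.36) and Rpl4 (0.67), whereas Rps27l (0.96), Rpl30 (0.89) and Rpl26 (0.87) followed the mean there. Among genes outside the rule, those among the most like the mean in LM were Gm5148 (0.97), Rpl14-ps1 (0.97), Eif3f (0.97) and C330021F23Rik (0.97), in LP Gm5148 (0.98), Gm15772 (0.96), C330021F23Rik (0.95) and Rpl37rt (0.95), and in MSC Rpl37rt (0.99), Rack1 (0.99), C330021F23Rik (0.99), Gm5148 (0.99) and Snrpd2 (0.99). Rack1 is a small subunit protein that the naming rule does not catch. Eif3f is a subunit of an initiation factor, and Rpl14-ps1 is named as a pseudogene.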

How the data were processed

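RNA from sorted mouse mammary fractions was made into full-length amplified cDNA libraries and sequenced as pairs, per the labels' protocols. The submitters' processing notes list the tools STAR, Cufflinks and DESeq2 and the genome build mm9; versions and step order are not given in the sources used here. The deposited values, described as read counts, had the scale of FPKM and were not whole numbers. They carried an adjustment by gene within 3 sets of libraries, inferred from values shared between libraries: within a set, 2 libraries had 1382 to 6488 identical values above 0, and across sets 0. An authors' step for this is not recorded in the labels.

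From these, libraries of a set were brought to a common level by median-ratio factors applied to the part above a gene's shared lowest value. Of 22007 rows, 27 with date-like names were left out. A gene was tested if at least 3 libraries reached 1 and at least 3 lay above its shared lowest value. Tests used limma 3.58.1 (R 4.3.3) on log2(value + 1) with trended, robust moderation, all 4 treatments of a fraction in 1 fit, a set term in MSC, and Benjamini-Hochberg adjustment over all genes tested, with 0.05 as the threshold. Folds on this scale understate changes of low genes, and values from separate mice measure spread between animals. The test was checked on simulated data. Trimmed mean factors were computed directly by the usual formula. The sampling depth is unknown, so no counting interval or floor is given.

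The named genes were members fixed by role, the 3 with the smallest p in each comparison, those called against the majority, the 3 highest and 3 lowest by level, the 2 genes of each other list with the smallest p, and the 5 genes outside the rule most like the mean, of which 1 is not reported here. Cell markers were summed for luminal mature, luminal progenitor, basal, endothelial, immune, fibroblast, adipocyte, red blood cell and skeletal muscle lists; other genes given were chosen after their values were seen. The members and lists were chosen with earlier results of these data known. Alternatives were trimmed mean scaling, no rescaling, library weights, no filter, a pseudocount of 0.1, a fit of only the groups compared, set 3 alone for MSC, and leaving out each library. Mice gave several fractions. The main fit of MSC against LP held a term for treatment and none for the mouse, and the fit with the mouse as a block was an alternative. Between the LP and MSC libraries of a mouse, correlations of deviations from the mean of each fraction were -0.02 to 0.35.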

Additional observations from a re-analysis of the deposited data

Results flagged for a closer look

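In groups of 4 libraries, 95 sets of values were examined for a library far from its group, and 5 stood apart, where chance gives about 1 in 20. In the LP fraction the ribosomal protein genes held 5.66% of the summed values in the EP library of mouse 327, against 8.62% to 9.1% in the others of its group. In the MSC fraction they held 10.5% in the sham library of mouse 326, against 5.45% to 5.9%. The same library had Rps18 at 779, against 397 to 456. Of this group, the library of mouse 305 was of set 2 and those of mice 310, 326 and 334 were of set 3. The MSC library of mouse 323 with EP+TPA had Rps18 at 1783, against 447 to 552, and Rps27l at 838, against 220.2 to 236. That library was of set 2, whereas those of mice 312, 328 and 336 in its group were of set 3, so these distances cross adjustment sets. The library of mouse 323 was also the one with the smallest rescaling factor, 0.504, and before rescaling its Rps18 value was 899 and its Rps27l value 422.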

How the results depend on the processing

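Not every gene named was followed through the settings, and Rpl26, Rps4l, Rps3, Rps27a, Rpl4 and Rpl13a in LM were not. No fold of a single gene that was followed changed sign, but medians over the ribosomal protein genes did. That of MSC against LP went from 0.18 to -0.44 without rescaling, and that of EP+RU486 against EP in LP from 0.13 to -0.02 without the EP library of mouse 327. In MSC, EP against sham went from 0.25 to -0.02 without sham 305, EP+TPA against sham from 0.37 to -0.09 in set 3 alone, EP+RU486 against sham from -0.03 to 0.20 without sham 326, EP+TPA against EP from 0.12 to -0.31 without EP+TPA 323, EP+RU486 against EP from -0.28 to 0.02 without EP 322, and EP+TPA against EP+RU486 from 0.40 to -0.05 without EP+TPA 323. The counts below are ribosomal protein genes past the test, and the cause of each move was not tested.

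In LM, EP against sham (45) gave 74 with library weights and 10 to 54 with 1 library left out. Over all genes 18.4% rose and 17.8% fell with library weights, and 4.23% to 12.2% rose with 1 library left out. EP+TPA against sham (68) gave 42 with only the groups compared and 40 to 74 with 1 left out. Over all genes 3.77% rose in the former setting and 3.43% to 7.93% in the latter. EP+RU486 against sham (71) gave 63 to 73 with 1 left out, where 6.32% to 9.29% of all genes rose. EP+RU486 against EP (8) gave 5 without rescaling, 5 with no filter, 18 with only the groups compared and 3 to 6 with 1 left out (6 without the EP+RU486 library of mouse 308, 5 or fewer without those of mice 306, 311, 313, 327, 329 and 333). For EP+RU486 against EP, 6.13% of all genes rose and 14.1% fell without rescaling. With no filter 4.94% rose and 6.36% fell, and with only the groups compared 13.0% rose and 11.5% fell. EP+TPA against EP (0) gave 1 with library weights and 0 to 1 with 1 left out (1 without mouse 332). Over all genes 10.6% rose and 10.6% fell with library weights, and 9.57% rose and 9.14% fell without mouse 332.

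In LP, EP against sham (5) gave 39 without rescaling, 15 with library weights, 3 with only the groups compared and 1 to 13 with 1 left out (3 without sham 305, sham 326 or EP 306). EP+TPA against EP (1) gave 0 with no filter, 2 with library weights, 0 with only the groups compared and 0 to 4 with 1 left out (4 without mouse 312, 3 without 311, 0 without 306, 322, 323, 327 or 328). Over all genes 12.5% rose and 15.2% fell with library weights, and 5.27% to 10.4% rose with 1 left out. EP+RU486 against EP (1) gave 3 without rescaling, 0 with no filter, 3 with library weights, 2 with only the groups compared and 0 to 2 with 1 left out (2 without mouse 311, 0 without 304, 308, 322 or 329). Over all genes 6.23% rose and 16.9% fell without rescaling, and 12.7% rose and 16.5% fell with library weights. With only the groups compared 6.75% rose and 7.89% fell, and without mouse 311 11.2% rose and 14.7% fell. EP+TPA against sham (0) gave 19 without rescaling, 2 with trimmed mean scaling, 6 with library weights, 1 with only the groups compared and 0 to 4 with 1 left out (4 without mouse 312). EP+RU486 against sham (0) gave 21, 2, 14 and 16 in that order and 0 to 2 (2 without mouse 329). With only the groups compared, 2.10% of all genes rose with EP+TPA against sham and 7.65% with EP+RU486 against sham. Without mouse 312 and without mouse 329 the shares that rose were 1.66% and 3.26%. Without rescaling, 3.82% of all genes rose and 2.09% fell with EP+TPA against sham, and 11.3% rose and 3.69% fell with EP+RU486 against sham.

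In MSC, EP against sham (0) and EP+TPA against EP (0) gave 1 with library weights, and every other setting of the 6 comparisons, set 3 alone included, gave 0. MSC against LP (1) gave 16 without rescaling, 1 to 2 with 1 mouse left out (Rpl30 as the second without 306) and 1 with the mouse as a replicate block, the paired fit, which changed no other call. Without rescaling, 11.1% of all genes were higher and 48.0% were lower in MSC.

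Without rescaling, the median of all genes moved to 0.14 for EP against sham in LM, where 1665 genes rose and 754 fell against 1227 and 1089, and to 0.25 in LP, where 3945 rose and 949 fell against 1852 and 1838. The ribosomal protein medians were then 0.77 and 0.43. For the single genes followed, 414 values with 1 library left out kept their side of the threshold, 100 lost the call and 6 gained it. Calls lost in more than 4 of those fits were Rpl37a and Rps9 (7 of 7 each), Rpl36a and Rpl30 (5 of 7 each) for EP+RU486 against EP in LM, Rps14, Rps6, Rpl10, Rpl22 and Rpsa (5 of 7 each) for EP against sham in LM, Rpl22 for EP+TPA against sham in LM (6 of 8), and in LP Rpl13 for EP+TPA against EP (6 of 8), Rps26 for EP against sham and Rpl30 for EP+RU486 against EP (5 of 8 each). Calls lost in 4 fits were those of Rpl5 (of 7) and Rpl15 (of 8) for EP against sham, in LM and LP respectively. Another was that of Rpl22l1 for EP+RU486 against sham in LM (4 of 8). Depth behind single values is unknown and sets no stated limit.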
